A study of Mus musculus with 17 samples.

Results

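The polyhormonal cells described here are pancreatic endocrine cells that carried high levels of 2 islet hormones at once. A cell was counted when, among Ins2, Gcg, Sst and Ppy, its second largest value was at least 2000 and more than 1 part in 3 of its largest value, with Prss2, an acinar protease gene, under 1500. By that rule 308 of 2999 cells were polyhormonal. Values are in the unit of the deposited normalized table, UMIs per 100000 UMIs of a cell after 8 genes are left out of its total, namely the 4 hormones with Ins1, Iapp, Pyy and Yam1; that total is called hormone-free UMIs below. A UMI is a molecular barcode, so each counts 1 captured transcript. The cells were chosen by these 4 hormone values and Prss2, so their levels are given as a description, without a test.

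The cells came from Ngn3-Cre; Rosa-RFP mice, in which Cre under the promoter of the endocrine progenitor factor Ngn3 turns on a red fluorescent reporter. RFP-positive cells were sorted and single cells were moved by mouth pipette into lysis buffer, for single-cell RNA sequencing by a modified STRT-seq. The adult groups were male mice of 2 months at injection. The STZ groups received 1 intraperitoneal dose of 200 mg/kg streptozotocin, a toxin of insulin-producing cells, and the controls received citrate buffer. STZ mice with insulin implants were collected at day 6 (STZ_D6), 12 (STZ_D12, 2 libraries), 30 (STZ_D30) and 42 (STZ_D42) and at month 2 (STZ_M2), 5 (STZ_M5) and 9 (STZ_M9, implants not continuous in the last 2 months), 8 libraries in all. Mice of STZ_M2_NoIns, 2 libraries, had no implant at month 2. There were 3 Control libraries and 4 postnatal ones without STZ, from day 3 (P3), 12 (P12, 2 libraries) and 21 (P21). All 17 libraries carried the same reporter. Nothing in the labels says that libraries of 1 group came from separate animals, so p-values measure the spread between libraries, which may be technical.

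A library held between 22 and 295 cells, and between 1420536 and 26298456 UMIs. The median cell of a library held between 36134 and 77147 UMIs and between 3732 and 5441 genes. The smallest library was Control replicate 3, with 22 cells. Of all cells, 2032 had at least 1 of the 4 hormones at 2000 or more with Prss2 under 1500, and are called hormone-positive. Single-hormone cells, 1410 in all, are those whose second hormone was under 2000 and at most 1 part in 3 of the largest; 889 of them were led by Ins2, 359 by Gcg, 50 by Sst and 112 by Ppy. Another 314 hormone-positive cells lay between both classes, and 817 cells had Prss2 at 1500 or more.

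Each adult islet endocrine cell type is known for 1 main hormone. Beta cells make insulin (in the mouse from Ins1 and Ins2), alpha cells glucagon (Gcg), delta cells somatostatin (Sst) and PP cells pancreatic polypeptide (Ppy), while epsilon cells make ghrelin (Ghrl). Cells with several hormones are known from the developing pancreas, and lineage tracing has shown that alpha and delta cells can begin to make insulin after nearly all beta cells are lost. The study followed islet cells over months after STZ, and the present comparison asks where such mixed cells stood among its groups.

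Upstream sequence is shown for 3 of the 4 hormone genes of the rule, Gcg, Sst and Ppy, since these are genes whose transcripts stood together in single wells. The windows are the 250 bases before the annotated start of each gene, from RefSeq on GRCm38.p6, read 5′ to 3′ on the minus strand, at chr2:62483654-62483903 for Gcg, chr16:23890845-23891094 for Sst and chr11:102101320-102101569 for Ppy. Capitals mark the letters TGACGTCA (the cAMP response element), TAAT (the core letters of many homeodomain sites) and TATAAA (the TATA box), each searched on both strands.
Gcg: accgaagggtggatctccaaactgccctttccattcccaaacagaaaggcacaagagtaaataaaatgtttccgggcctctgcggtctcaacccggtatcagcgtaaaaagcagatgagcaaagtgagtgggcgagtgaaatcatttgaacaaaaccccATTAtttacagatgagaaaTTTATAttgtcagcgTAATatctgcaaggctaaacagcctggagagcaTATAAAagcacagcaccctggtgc
Sst: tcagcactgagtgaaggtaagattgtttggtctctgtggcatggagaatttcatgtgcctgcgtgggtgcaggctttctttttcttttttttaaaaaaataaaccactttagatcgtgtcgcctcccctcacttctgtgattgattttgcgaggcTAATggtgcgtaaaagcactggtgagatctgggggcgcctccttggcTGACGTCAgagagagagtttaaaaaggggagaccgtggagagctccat
Ppy: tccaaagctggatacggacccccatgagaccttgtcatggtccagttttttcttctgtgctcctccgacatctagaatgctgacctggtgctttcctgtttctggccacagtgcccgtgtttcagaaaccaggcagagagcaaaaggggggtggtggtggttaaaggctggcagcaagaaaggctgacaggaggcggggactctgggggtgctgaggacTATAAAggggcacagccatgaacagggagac
The cAMP response element letters occurred in the Sst window, 48 bases before the start, and in 1.55% of 32851 mouse promoter windows. TAAT occurred at 2 places for Gcg, at 1 for Sst and at none for Ppy, and in 54.9% of all windows. TATAAA occurred at 2 places for Gcg, at 1 for Ppy and at none for Sst, and in 12.4% of all windows. The looser letters CANNTG (the E-box), not capitalised, were found 3 times for Gcg, 1 time for Sst and not for Ppy, and in 66.2% of all windows. These matches describe letters in the windows and say nothing of binding. Ins2 is named only.

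Ppy was the partner in most polyhormonal cells. It was 1 of the 2 leading hormones in 248 of 308 cells (80.5%), against 138 for Sst, 118 for Ins2 and 112 for Gcg. Over all libraries Sst with Ppy was the most frequent pair, 106 cells (34.4%), of which 65 came from STZ libraries with implants, and Sst was the higher hormone in 102 of them. Gcg with Ppy made up 77 cells (25%), 48 of them led by Gcg, and Ins2 with Ppy 65 cells (21.1%), 42 of them led by Ins2. Ins2 with Gcg was found in 28 cells (9.09%), of which 23 were led by Gcg, Ins2 with Sst in 25 cells and Gcg with Sst in 7 cells. Another of the 4 hormones, besides the leading pair, reached 2000 in 58 of the 308 cells; it was also above 1 part in 3 of the largest in 20 of them, and all 4 hormones reached 2000 in 1 cell.

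**Figure D1:**
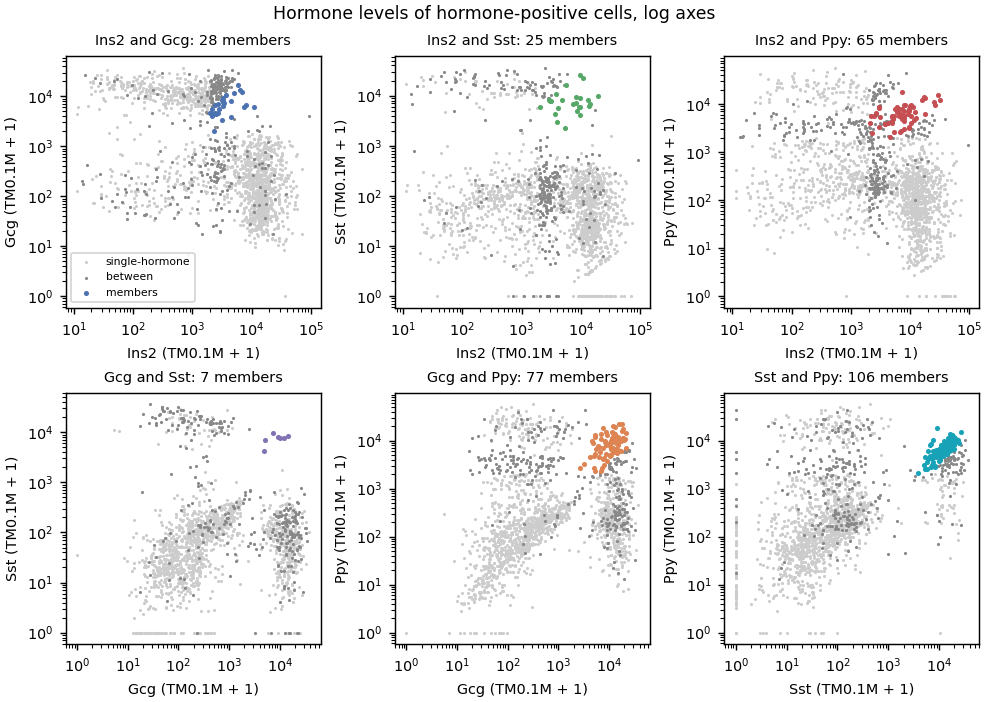
Levels of both hormones (UMIs per 100000 hormone-free UMIs plus 1, log axes) in hormone-positive cells, with 1 panel for each of the 6 hormone pairs; light grey points are single-hormone cells, dark grey points cells between both classes and coloured points the polyhormonal cells of that pair. The coloured points fill the upper right corner by the rule itself; 106 cells carried Sst with Ppy and 7 Gcg with Sst.

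The hormones of a pair stood at different distances from the level of a single-hormone cell. In Sst and Ppy cells the median level was 12622 for Sst and 6669 for Ppy, beside 12091 for Sst in single Sst cells and 18881 for Ppy in single Ppy cells. Within libraries that held at least 3 cells of both kinds, the median Sst level of the pair was 0.85 times that of single Sst cells (6 libraries, 0.56 to 1.48), and its Ppy level 0.42 times that of single Ppy cells (8 libraries, all below 1). Sst stood near its single-cell level and Ppy well below. Both classes were set by these hormone values: Ppy leads in every single Ppy cell, while Sst led in most cells of this pair. The ratios, here and for the other pairs below, are therefore a description only.

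In Gcg and Ppy cells the median level was 10964 for Gcg and 8712 for Ppy. Gcg was 0.90 times its level in single Gcg cells of the same library (12 libraries, 0.62 to 1.18) and Ppy 0.56 times that of single Ppy cells (7 libraries, all below 1). In Ins2 and Ppy cells the median was 7206 for Ins2 and 5808 for Ppy, which was 0.69 times the single-cell level for Ins2 (10 libraries, 9 of them below 1) and 0.44 times for Ppy (6 libraries, all below 1). Ppy was below its single-cell level in every library compared, whichever of these hormones it stood with. The rule bears on this, since Ppy leads in all single Ppy cells but was more often second in these pairs.

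In Ins2 and Gcg cells the median was 3264 for Ins2 and 6542 for Gcg. Ins2 there was 0.28 times its level in single Ins2 cells (3 libraries, all below 1), while Gcg was 0.61 and 1.42 times that of single Gcg cells in the 2 libraries compared. Ins2 and Sst cells had a median of 8390 for Ins2 and 7209 for Sst, and Gcg and Sst cells 9292 for Gcg and 7778 for Sst.

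The relatives of the 4 hormones, left out of the rule, varied between the pairs. Ins1, the other mouse insulin gene, whose reads can be split with those of the near-identical Ins2, had a median level of 1848 in Ins2 and Gcg cells and 1438 in Ins2 and Ppy cells, beside 11525 in single Ins2 cells. Iapp, which encodes the amyloid peptide that beta and delta cells secrete, stood at 5667 in Ins2 and Ppy cells, 3342 in Sst and Ppy cells and 616 in Ins2 and Gcg cells, beside 6907 in single Ins2 and 3915 in single Sst cells. Pyy, peptide YY, the close relative of Ppy, stood at 5518 in Sst and Ppy cells and 7149 in Gcg and Ppy cells, beside 4510 in single Sst and 11922 in single Ppy cells. It stood at 4101 in Ins2 and Ppy cells, and at 4981 and 3948 in Ins2 and Sst and in Gcg and Sst cells, so that pairs without Ppy held it as well. Ttr, the thyroid hormone carrier transthyretin that is abundant in alpha cells, stood at 1783 in Gcg and Ppy cells and 56 in Sst and Ppy cells, beside 3848 in single Gcg cells.

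Polyhormonal cells were endocrine by their general markers. At least 1 UMI was found in 99.4% of the 308 cells for Pax6, 97.1% for Isl1 and 91.6% for Neurod1, transcription factors of all islet cells, and in 100% for Chga, a granule protein. The leukocyte gene Ptprc had a UMI in 2.3% of the cells, the endothelial gene Pecam1 in 5.2%, the fibroblast gene Col1a1 in 0.3% and the duct gene Krt19 in 16.9%. The summed level of 6 immune genes, and that of 7 endothelial and stromal genes, had a median of 0 in each hormone pair. That of 10 acinar genes had medians of 757 to 1514 in the pairs and 983 to 2571 in the 4 single-hormone classes, and that of 7 duct genes 20.9 to 59.1 and 26.2 to 103. Prss2, which the rule kept under 1500 in all of these cells, is 1 of the 10 acinar genes. The acinar sum was thus limited in advance on both sides and is a description only. Mafa, a factor of mature beta cells, was listed at 0 in all 2999 cells, single Ins2 cells included, so that its 0 in the polyhormonal cells gives no information on their state.

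Low levels of a second hormone were common outside these cells. In single-hormone cells the median second hormone was at 311, and in the polyhormonal cells at 6091. Of single Sst cells 42% had Ppy at 1000 or more (21 of 50 cells), of single Gcg cells 28.4% had Ins2 there and 10.9% Ppy, and of single Ppy cells 0.893% had Sst there. In the 817 cells with Prss2 at 1500 or more, which should lack the hormones, the shares at 1000 or more were 13.8% for Ins2, 5.88% for Gcg, 4.65% for Sst and 7.10% for Ppy, at a median of 124034 UMIs per cell. The ratio of the second to the largest hormone ran on across the limit: the 5 lowest polyhormonal cells were at 0.334 to 0.342 and the 5 highest cells left out for this ratio at 0.329 to 0.331. The 5 lowest second hormones were at 2010 to 2066, and 14 cells were left out by Prss2 alone.

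Polyhormonal cells made up a larger share of the hormone-positive cells in every STZ library with implants than in any control library. The share was 5.02% (13 of 259 cells) in Control replicate 1, 7.53% (14 of 186) in replicate 2 and 0% (0 of 22, which allows up to 13.6%) in replicate 3. It was 10.5% at STZ_D6, 21.1% and 19.4% in STZ_D12 replicates 1 and 2, 17.8% at STZ_D30, 21.5% at STZ_D42, 20% at STZ_M2, 15.6% at STZ_M5 and 29.6% (47 of 159) at STZ_M9. The mean was 19.4% ± 5.44 (SD, n = 8) with STZ and implants and 4.18% ± 3.83 (SD, n = 3) in controls, a difference of 15.2 percentage points (exact two-sided permutation test over libraries, p = 0.0121, the smallest that 165 arrangements allow). Blocked by the labelled batch number, which equals the replicate number, the difference was 13.5 points and the exact permutation p 0.0625, the smallest that its 16 arrangements allow. Without STZ_M9 the difference was 13.8 points (exact permutation p = 0.0167). STZ, the implants and the time since injection cannot be told apart in this contrast.

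The collected cell types differed between controls and STZ libraries with implants as well. Single-hormone cells were 84.2% to 95.5% Ins2 cells in control libraries and 9.62% to 86.2% in STZ libraries with implants. A pair of cells drawn at random from the single-hormone cells of a library would differ in hormone in 8.68% to 27.2% of draws in controls and in 24.8% to 66.9% in STZ libraries with implants. Among the other libraries this value and the share were not in the same order: P3 had 4.72% of such draws and a share of 15.8%, the P12 libraries 16.9% and 16.3% with shares of 4.11% and 2.74%, P21 31.0%, and the STZ_M2_NoIns libraries 33.5% and 52.4% with shares of 29.3% and 20.5%. The part of this make-up in the shares was not tested. A rise in mixed cells and a loss of other cells cannot be told apart from a share. Counted over all cells of a library rather than the hormone-positive ones, the difference was 7.88 points (exact permutation p = 0.0242).

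**Figure D2:**
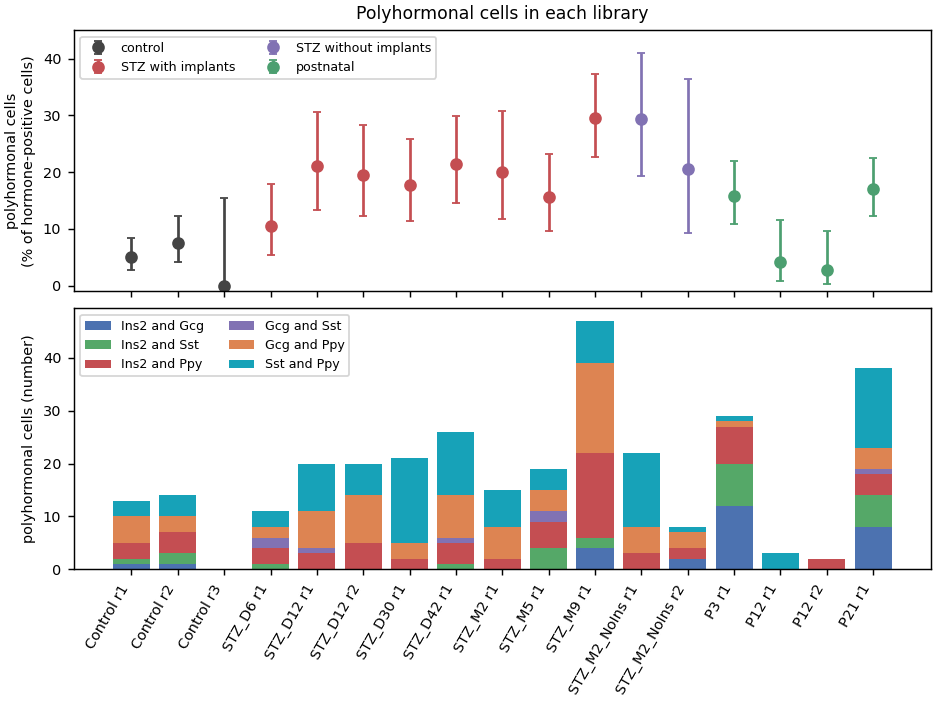
Upper panel, the share of polyhormonal cells among hormone-positive cells (percent, with exact 95% binomial intervals that cover counting error only) in each of 17 libraries; lower panel, the number of polyhormonal cells by hormone pair. The 8 STZ libraries with implants lie between 10.5% and 29.6% and the 3 controls at or below 7.53%.

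Without implants, the share was 29.3% (22 of 75 cells) and 20.5% (8 of 39) in the 2 STZ_M2_NoIns libraries. That was 5.50 points above the mean of the STZ libraries with implants, a difference within the spread between libraries (exact two-sided permutation p = 0.311 over 45 arrangements). Postnatal shares were 15.8% (29 of 183) at P3, 4.11% (3 of 73) and 2.74% (2 of 73) at P12 and 17% (38 of 224) at P21. They averaged 9.92% ± 7.53 (SD, n = 4), 5.73 points above controls, which did not pass the exact permutation test (p = 0.4, where 35 arrangements allow 0.0571 at the least). P3 and P21 lay above all 3 controls, and both P12 libraries below the 2 larger ones.

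The pairs differed between the groups. In STZ libraries with implants 161 of 179 polyhormonal cells carried Ppy: 65 with Sst, 56 with Gcg and 40 with Ins2, and 4 carried Ins2 with Gcg. In the postnatal libraries 20 of 72 cells carried Ins2 with Gcg, 12 of them at P3 and 8 at P21. All 4 Ins2 and Gcg cells of the STZ libraries with implants came from STZ_M9. The 27 control cells held 8 with Gcg and Ppy, 7 with Sst and Ppy and 7 with Ins2 and Ppy, and the 30 cells without implants 15 with Sst and Ppy and 8 with Gcg and Ppy. Differences in the pairs between groups were not tested.

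Set beside the unlike pairs that the single-hormone cells of a library could form, weighted by the polyhormonal cells of each library, the observed pairs had another make-up. In STZ libraries with implants Sst with Ppy was 36.3% of the polyhormonal cells and 5.84% of such pairs, while Ins2 with Gcg was 2.23% and 41.4%. In controls Ins2 with Gcg was 7.41% of the polyhormonal cells and 92.6% of the pairs, and in postnatal libraries 27.8% and 62.7%. Sst with Ppy was 25.9% against 0.0331% in controls and 26.4% against 0.157% in postnatal libraries. The second value of each rests on very few cells, 1 single Sst and 2 single Ppy cells in controls and 5 and 3 in postnatal libraries. The same rule took polyhormonal cells out of the single-hormone cells, which lowers the count of single Sst cells most, and its part in these values was not tested.

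Within each hormone, the share of positive cells that were polyhormonal was higher in STZ libraries with implants than in controls for Ins2. Of cells with Ins2 at 2000 or more, 4.18% (10 of 239), 6.45% (10 of 155) and 0% (0 of 21) were polyhormonal in Control replicates 1, 2 and 3. The share was 11.8% (4 of 34) at STZ_D6, 20% (3 of 15) and 13.6% (6 of 44) at STZ_D12 and 8% (2 of 25) at STZ_D30. It was 25% (5 of 20) at STZ_D42, 25% (2 of 8) at STZ_M2, 15.3% (17 of 111) at STZ_M5 and 39.3% (24 of 61) at STZ_M9. The groups did not overlap, though several shares rest on few cells. A rise in such cells and a loss of single Ins2 cells cannot be told apart here either. The mean was 19.8% ± 9.99 (SD, n = 8) against 3.55% ± 3.27 (SD, n = 3), a difference of 16.2 points (exact two-sided permutation p = 0.0121, 0.0485 after Benjamini-Hochberg adjustment over the 4 hormones). With the batch number as a block it was 13.1 points (exact permutation p = 0.125), and among cells up to the median depth of their library 16.6 points (exact permutation p = 0.0952).

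The other 3 hormones gave no difference past the test, with 2 control libraries that held at least 5 positive cells each, so that 0.0444 is the smallest exact permutation p. The difference was 4.73 points for Gcg (p = 0.711), −9.71 for Sst (p = 0.311) and −5.10 for Ppy (p = 0.444), all exact permutation tests. Sst-positive cells were polyhormonal in 27.0% to 58.8% of cases in STZ libraries with implants, in 46.2% and 66.7% in the controls and in 73.3% at P21. The Sst difference rests on Control replicate 1 and was 0.546 points without it. With 1 library left out in turn the difference ran from 1.42 to 7.93 points for Gcg and from −10.2 to −0.0162 for Ppy. A difference between hormones in these effects was not tested.

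Polyhormonal cells held about as many RNA molecules as single-hormone cells of their library. The median hormone-free UMI count of polyhormonal cells was 0.94 times that of single-hormone cells (median of 16 libraries, 0.75 to 1.61), higher in 7 libraries and lower in 9. The number of genes was 0.98 times as high, higher in 6 and lower in 10. After thinning each cell to 17000 UMIs, which left out 26 polyhormonal and 119 single-hormone cells, the gene number ratio was 1.00. Of the 308 cells, 31 (10.1%) lay above the 90th percentile of hormone-free UMIs of the single-hormone cells of their library. Hormone values are divided by the hormone-free total, so the rule used this depth and no test was made.

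Set against the mean of both parents of the same library, that is of the single-hormone cells of each hormone, the depth of the pairs stood between 0.49 and 1.88. A well with 1 cell of each parent would hold the UMIs of both, 2 times that mean, if both were captured alike. Sst and Ppy cells had a median ratio of 0.99 over 6 libraries, from 0.69 at STZ_D6 to 1.88 at STZ_D42. The STZ_D42 value stood apart: there the pair held a median of 29103 hormone-free UMIs against 13148 in 5 single Sst cells and 17812 in 19 single Ppy cells. Gcg and Ppy cells were at 1.05 over 7 libraries (0.90 to 1.36), Ins2 and Ppy cells at 1.19 over 5 libraries (0.49 to 1.26) and Ins2 and Gcg cells at 0.78 and 0.98 in 2 libraries. For 10 libraries the names of the read files of the cells share a first part, read here as a pool of cells: 32 of 36 such pools held polyhormonal cells, and none occurred in 2 libraries. No doublet caller was run.

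**Figure D3:**
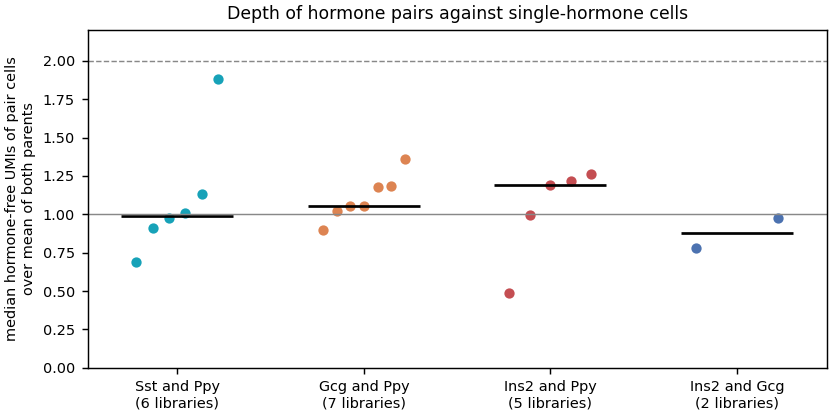
Median hormone-free UMIs of the cells of a hormone pair divided by the mean of the medians of both single-hormone parents, with 1 point per library that held at least 3 cells of each kind; black bars are medians, the solid line marks 1 and the dashed line 2. The medians lie at 0.99, 1.05, 1.19 and 0.88, and the highest point, Sst and Ppy at STZ_D42, at 1.88.

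The gene programs of both parents were then read in each pair, with the 4 hormones of the rule and Prss2 left out. For each of the 4 types, 20 genes were taken whose level in its single-hormone cells was highest over the other types. Among the first genes of the beta list were Ins1, Ucn3, G6pc2 and Prss53, of the delta list Ly6h, Hhex, Cd24a, Fam159b and Dpp6, and of the PP list Cd9, Ugt2b34, Pyy and Rcn3. The alpha list begins with Hba-a2, Hba-a1, Higd1a, Ttr and Slc38a5, of which the first pair are near-identical haemoglobin genes. Each gene was divided by its mean in the parent, so that all genes of a list weighed alike, and the genes were averaged; a cell was placed at 1 when this average equalled the median of its own parent in that library, and at 0 when it equalled that of the other parent, so that an equal mixture lies at the middle on both scales and their sum at 1. The lists come from cells the same rule defined, so no test was made. Ins1 and Pyy, hormone genes close to those of the rule, are in the beta and PP lists; without them the medians below were 0.71 for delta and 0.04 for PP genes in Sst and Ppy cells, 0.57 and 0.41 for alpha and PP genes in Gcg and Ppy cells, 0.39 and 0.17 for beta and PP genes in Ins2 and Ppy cells, and 0.03 and 0.96 for beta and alpha genes in Ins2 and Gcg cells.

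Sst and Ppy cells lay nearer to single Sst cells than to single Ppy cells in both the delta and the PP program. Over 55 cells of 6 libraries the median was 0.71 for delta genes and 0.03 for PP genes, and 44 of the 55 cells had a PP value of 0.25 or less. The sum was 0.83, from 0.64 to 1.21 by library. Both values were above 0.25 in 9 cells. A PP value of 0 is the level of single Sst cells, which hold PP genes too. The summed level of 5 PP markers, Pyy among them, had a median of 5596 in Sst and Ppy cells. It was 4592 in single Sst and 12196 in single Ppy cells. Some parents were few, with 3 single Sst cells at STZ_D6 and 4 single Ppy cells at STZ_M9. The delta factor Hhex had a mean level of 46.6 in Sst and Ppy cells, 55.3 in single Sst cells and 1.3 in single Ppy cells.

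Gcg and Ppy cells stood between both parents. Over 55 cells of 7 libraries the median was 0.57 for alpha genes and 0.43 for PP genes, with both above 0.25 in 32 cells, and the sum was 1.06 (0.69 to 1.47 by library). Ins2 and Ppy cells were lower on both: 0.38 for beta genes and 0.21 for PP genes over 31 cells of 5 libraries, with a sum of 0.67 (0.60 to 0.94) and both above 0.25 in 11 cells. Single-hormone cells had sums from 0.48 to 2.08 between their 10th and 90th percentiles, over the scales of these pairs. The PP list was the weakest, with ratios of 1.4 to 4.8 over the other types, and with the marker lists in place of these lists the sums of the 4 pairs were 0.928 to 1.47.

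Ins2 and Gcg cells differed between the 2 libraries where both parents were at hand. At P21, 8 cells had a median of 0.00 for beta genes and 1.10 for alpha genes, and at STZ_M9 4 cells had 1.14 and 0.50. At P3, which had too few single Gcg cells, 12 cells placed against the single-hormone cells of all libraries had 0.03 and 1.10. The postnatal Ins2 and Gcg cells thus carried the alpha program beside Ins2. Their median Ins2 level was 2814 (20 cells, 2026 to 6340). Ins2 was not absent from the 29 postnatal single Gcg cells, whose median was 1394, beside 1469 in controls and 217 in STZ libraries with implants. The rule itself parts these classes by their Ins2 level. Whether the postnatal Ins2 and Gcg cells are distinct from other postnatal Gcg cells was not tested. Placed against the single-hormone cells of all libraries, the 14 postnatal Ins2 and Sst cells had 0.12 for beta genes and 0.55 for delta genes.

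**Figure D4:**
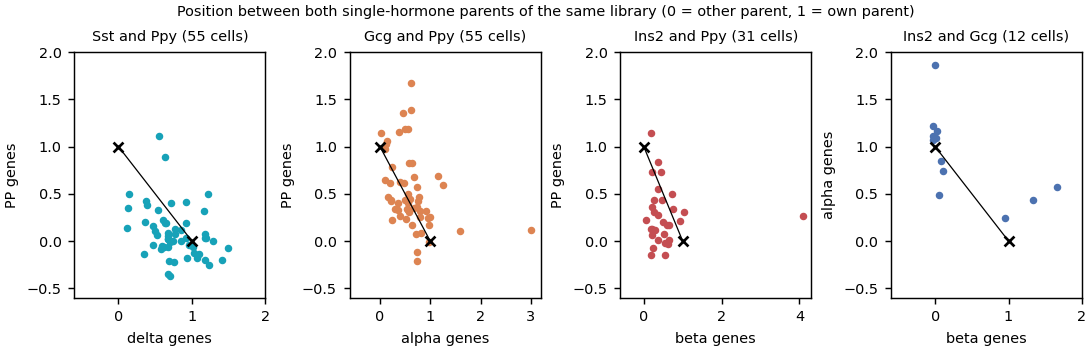
Position of each cell of 4 hormone pairs between its parents in the same library, 1 point per cell, with the program of the first hormone on the x axis and of the second on the y axis (0, level of the other parent; 1, level of the own parent); crosses mark the parents and the line joins them. Sst and Ppy cells gather near the delta parent (medians 0.71 and 0.03), Gcg and Ppy cells along the line (0.57 and 0.43).

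Genes outside the rule were tested by comparing the summed UMIs of a pair in each library with equal sums of both parents, the library being a block (edgeR quasi-likelihood test, Benjamini-Hochberg over all genes tested, called at an adjusted p under 0.05). Both sides of this contrast were set by the hormone values, so genes that follow a hormone are not independent of the rule.

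Sst and Ppy cells had lower levels of Ttr, Nap1l5 and Cd9, and higher levels of the delta list genes Rbp4, Frzb and Arg1, than equal sums of both parents. Of 4314 genes in 6 libraries 24 were called (0.556%), 9 higher (0.209%) and 15 lower (0.348%).

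Ttr was at 423, 571, 463, 303, 253 and 879 CPM (UMIs per 1000000 of the sum, TMM-scaled) in the pair and at 1140, 1815, 3826, 2807, 2952 and 2323 in the parents (log2 fold change −2.36 ± 0.25, SE, edgeR adjusted p = 1.52e-06). Cd9, a tetraspanin of the PP marker list, was at 0 to 113 CPM in the pair and 61.9 to 460 in the parents (−2.49 ± 0.32, edgeR adjusted p = 4.42e-05), and lower in each library. The other genes named as lower were Serpina7, thyroxine-binding globulin (−3.71), Pappa2, a protease of IGF-binding proteins (−3.60), Ddc, dopa decarboxylase (−2.72), Nap1l5 (−2.71), the glucuronosyltransferase Ugt2b34 (−2.02), Oxr1 (−1.93), the metallothionein Mt2 (−1.26) and Pyy (−0.59).

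The 9 genes that rose were Cd44, a hyaluronan receptor (log2 fold change 1.23), Frzb, a secreted Wnt antagonist (1.15), Sez6l (1.03), Fam159b (0.98), the surface glycoprotein Cd24a (0.97), the retinol carrier Rbp4 (0.95), the RNA-binding protein gene Cirbp (0.95), arginase Arg1 (0.81) and Hadh, an enzyme of fatty acid oxidation (0.80). Of the delta marker list 3 of 5 tested genes were called, all higher (Rbp4, Frzb and Arg1), with a median of 0.81 for the list beside −0.03 for all genes. Of 4 PP list genes 2 were lower (Cd9 and Pyy), and of 5 alpha list genes 1 was lower (Ttr). Hhex was at 238 to 386 CPM in the pair and 168 to 311 in the parents (log2 fold change 0.62, edgeR adjusted p = 0.242, not called).

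**Figure D5:**
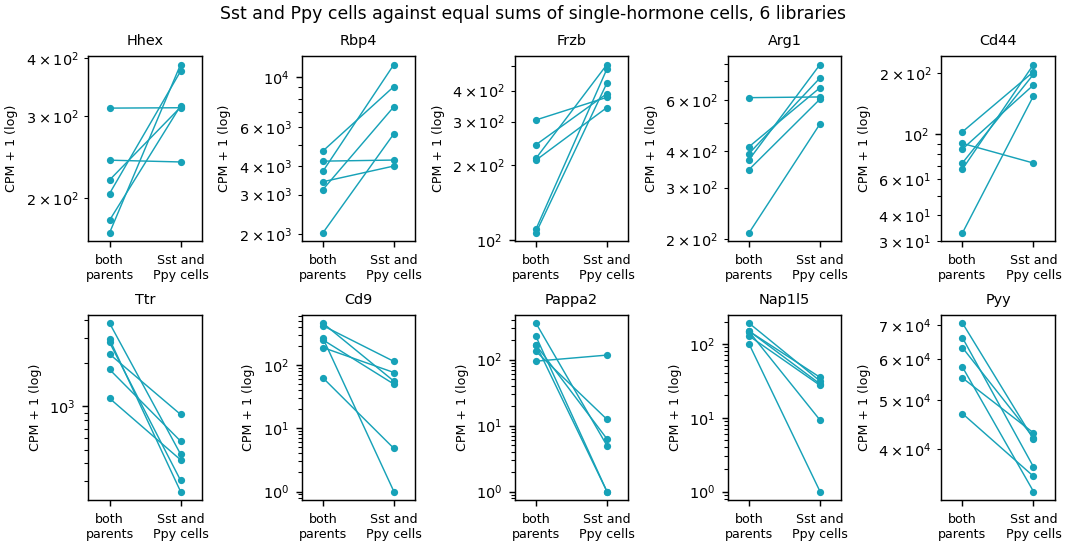
Level of 10 genes (TMM-scaled CPM plus 1, log axes) in the equal sums of single Sst and single Ppy cells (left) and in the Sst and Ppy cells (right) of 6 libraries, joined by library. Nap1l5, Cd9 and Ttr are lower in the pair in each library; Hhex was not called.

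The count for this pair rests on single libraries: it was 13 without STZ_D6, 12 without STZ_D12 replicate 1, 7 without STZ_D30 and 38 without STZ_M2. Cd9, Nap1l5, Ttr, Pappa2 and Fam159b were called each time 1 library was left out.

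Few genes passed the test between Gcg and Ppy cells and the sum of their parents. Of 5913 genes in 7 libraries 3 were called (0.0507%), 2 higher (0.0338%) and 1 lower (0.0169%), and 296 had an unadjusted p under 0.05. Pyy was at 49652, 59976, 73046, 67435, 58259, 65498 and 47517 CPM in the pair and 51550, 49810, 50540, 46798, 47076, 35477 and 36549 in the parents, higher in 6 of 7 libraries (log2 fold change 0.51 ± 0.09, SE, edgeR adjusted p = 0.00824). Gpx3, secreted glutathione peroxidase, was higher in all 7 (0.45 ± 0.09, edgeR adjusted p = 0.0361). Hadh was lower in all 7, at 0 to 41.6 CPM against 34.3 to 145 (−1.85 ± 0.34, edgeR adjusted p = 0.0222), while in Sst and Ppy cells it was higher.

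None of the 11 alpha list genes tested passed in Gcg and Ppy cells (median log2 fold change −0.16, beside −0.08 for all genes), and of 4 PP list genes only Pyy did. The PP marker Tspan8 had a log2 fold change of −0.71 (edgeR adjusted p = 0.193). The count was 1 without STZ_D12 replicate 1, 1 without STZ_D12 replicate 2, 0 without STZ_D30 and 0 without STZ_M9 in edgeR, where 279 and 238 genes still had an unadjusted p under 0.05. DESeq2 called 11 genes, 6 higher and 5 lower.

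Ins2 and Ppy cells differed from the sum of their parents in 10 of 6713 genes (0.149%) over 5 libraries, 4 higher (0.0596%) and 6 lower (0.0894%). Ttr was at 977, 699, 1601, 1116 and 2153 CPM in the pair and at 2572, 3749, 4173, 4778 and 4169 in the parents (log2 fold change −1.48 ± 0.18, SE, edgeR adjusted p = 3.13e-05). Fam159b was at 225, 76.6, 168, 122 and 232 CPM against 45.3, 32.3, 53.4, 29.5 and 51.4 (2.07 ± 0.29, edgeR adjusted p = 0.000314). Neither gene's groups overlapped.

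The other genes that rose were Pcp4, a regulator of calmodulin (log2 fold change 3.15), Hist1h4h, 1 of several near-identical histone genes and so uncertain (1.28), and Chga (1.05). Lower were the osteopontin gene Spp1 (−2.94), the secreted Wnt modulator Sfrp5 (−2.67), Pappa2 (−2.37), the transcription factor gene Etv1 (−1.80) and Cd9 (−1.78). Of the 4 PP list genes tested 2 were lower (Etv1 and Cd9), and of 10 beta list genes none was called, with a median of −0.39 beside −0.09 for all genes. Iapp had 0.75 and the islet phosphatase gene G6pc2 −1.93, each at an edgeR adjusted p of 0.0556. The count was 29 without STZ_D6, 5 without STZ_D12 replicate 1 and 2 without STZ_D42, where Ttr and Fam159b were still called. DESeq2 called 15 genes higher and 8 lower.

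The remaining pairs stood in too few libraries with both parents for a test, 2 for Ins2 with Gcg and none for Ins2 with Sst and Gcg with Sst.

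Among polyhormonal cells with Ins2 as a leading hormone, genes of mature beta cells were lower in STZ libraries with implants than in controls. The comparison took 48 such cells of 6 STZ libraries with implants and 12 cells of 2 control libraries, summed by library. Of 6411 genes 16 were called (0.25%), 5 higher (0.078%) and 11 lower (0.172%) by the same edgeR test, without a block. Of 12 beta list genes 6 were lower and none higher, with a median log2 fold change of −2.22 beside 0.00 for all genes.

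G6pc2 was at 1087 and 1099 CPM in the controls and at 31.4, 216, 235, 101, 120 and 199 in the STZ libraries (log2 fold change −2.85 ± 0.36, SE, edgeR adjusted p = 5.08e-05). Slc2a2, the glucose transporter of beta cells, was at 302 and 315 CPM against 35.3, 0, 29.7, 71.3, 45.4 and 45.4 (−2.90 ± 0.42, edgeR adjusted p = 0.00024). Ucn3, urocortin 3, a peptide of mature beta cells, was at 500 and 272 CPM against 3.9 to 102 (−3.28 ± 0.50, edgeR adjusted p = 0.000422). The groups did not overlap for any of the 3.

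The other list genes that fell were Gad1, the GABA-making decarboxylase (−5.33), Sytl4, a granule docking protein (−3.30), and Ero1lb, an oxidase of insulin folding (−1.48). Also lower were Cox6a2, a subunit of cytochrome oxidase (−5.87), the G protein regulator Rgs4 (−3.95), the transcription coregulator Cited2 (−2.47) and Spp1 (−2.36). Tmem215 had 87 UMIs in the control cells and 0 in the STZ cells, at least 96.9-fold higher in controls against a floor of 3 counts over the arm.

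Among the 5 genes that were higher, Slc5a10, a sugar transporter, was at least 31.8-fold higher against that floor and S100z, a calcium-binding protein, at least 13.8-fold higher, both with 0 control UMIs. Pdyn, prodynorphin, had 3 control UMIs and a ratio of 38.3 (exact 95% counting interval 13.0 to 187), and Gpi1, glucose-6-phosphate isomerase, rose by 2.51 on the log2 scale (edgeR adjusted p = 0.0229).

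G6pc2, Ucn3 and Slc2a2 had lower means with STZ in single Ins2 cells of the same libraries too, in 339 control and 156 STZ cells. In CPM without TMM scaling, the mean of G6pc2 was 3934 in control and 1033 in STZ single Ins2 cells, and 1115 and 151 in the polyhormonal ones. Ucn3 was at 850 and 97.4 in single Ins2 cells and at 393 and 35.5 in polyhormonal cells, and Slc2a2 at 575 and 84.1, and at 315 and 37.0. For S100z, Spp1 and Rgs4 the control and STZ libraries overlapped in single Ins2 cells. Rgs4 was at 55.8 and 124 in control polyhormonal cells and at 0 to 16.3 in STZ ones. In single Ins2 cells it was at 4.73 and 10.9 against 0 to 14.3. The share of all genes tested that stood apart between these libraries was not computed. Whether the change differed between polyhormonal and single Ins2 cells was not tested.

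The pairs differed between the arms of this comparison: controls held 2 Ins2 and Gcg, 3 Ins2 and Sst and 7 Ins2 and Ppy cells, and the STZ libraries 4, 8 and 36. Its part in these results was not tested. STZ, the implants and the time since injection cannot be told apart in this comparison. DESeq2 called 24 genes, 16 higher and 8 lower, and edgeR 6 without Control replicate 1, 10 without STZ_D12 replicate 2 and 9 without STZ_M5. G6pc2 and Slc2a2 were called under each of these. With the batch number as a block, Cited2 (edgeR adjusted p = 0.0805) and Ero1lb (edgeR adjusted p = 0.134) were not called.

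Ghrl was high in few polyhormonal cells. It reached 1000 in 5 of 308, all at P3, 4 of them Ins2 and Gcg cells and 1 an Ins2 and Ppy cell, at levels of 1130, 2008, 2593, 3060 and 3127. In those cells Ghrl thus stood beside 2 other hormones.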

How the data were processed

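Single cells of 17 libraries in 12 groups were read from 2 deposited tables, 40824 genes by 2999 cells. The authors' UMI counts were made on mm10 with UMI-tools 0.5.0, SAMtools 1.3.1, TopHat2 2.1.0 and featureCounts 1.5.3, per the submitters' processing notes; the order and filters are not given in the sources used here. The deposited normalized signal equals the UMI count times 100000 over the UMI total of the cell without 8 hormone genes, within 0.01 for all values compared. No cell was filtered out, and no doublet caller was run.

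The polyhormonal cells, the marker lists and the tests were chosen with earlier results of these data known. Shares were compared by exact permutation over libraries. Genes were tested on UMI counts summed per library over at least 3 cells (edgeR 4.0.16, TMM, filterByExpr, R 4.3.3; alternative DESeq2 1.42.0); parent sums were thinned to the smaller parent. The 5 genes of the rule were left out of the counts of called genes and of the parent lists. The shares, the pairs and the hormone levels are made from them. Of each comparison the 10 called genes with the largest changes each way and the called genes of the marker lists were named, except a few that are not reported here. The scripts were tested on simulated data.

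The labels' batch number equals the replicate number and so pairs libraries of different groups; the differences between replicates 1 and 2 of 4 groups correlated at −0.02 to 0.32 over 6107 genes. The blocked value stands beside the results it changed. Promoter windows came from a RefSeq table of GRCm38.p6. Intervals and floors cover counting error only. Alternatives were another normalization, no filter on low counts, a cell minimum of 5, stricter single-hormone cells, shallow cells, a stricter ratio, and leaving out each library.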

Additional observations from a re-analysis of the deposited data

Results flagged for a closer look

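Of 102 groups of 4 to 10 libraries examined, 12 had 1 library far from the others; chance gives about 1 in 20. The share of polyhormonal cells among Ppy-positive cells was 79.2% at STZ_M9, the highest of the 8 STZ libraries with implants. The depth of Sst and Ppy cells was 1.88 times the mean of their parents at STZ_D42, the highest of 6. In the Ins2-positive polyhormonal cells of 6 STZ libraries, Pdyn was highest at STZ_D42 (373 CPM), Cox6a2 at STZ_M5 (9.08 CPM), Gpi1 at STZ_D6 (644 CPM) and Rgs4 at STZ_M9 (15.8 CPM). For Ins2 with Ppy, Hist1h4h was lowest (159 CPM) and Pappa2 highest (138 CPM) in the pair cells of STZ_D6, and Pcp4 was highest in the parents of STZ_M9 (84.2 CPM). For Sst with Ppy, Ddc was highest in the pair cells of STZ_D42 (65.2 CPM), Pappa2 in those of STZ_M9 (116.0 CPM) and Mt2 in the parents of STZ_D12 replicate 1 (1086 CPM).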

How the results depend on the processing

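Of 94 values of the comparisons under alternatives other than leaving out a library, 71 were counted as unchanged, as were 89 of 105 with 1 library left out. The rule for this differed by result. A number of called genes was unchanged when it stayed of similar size, and a program sum when it moved by less than the SD between libraries. With the batch number as a replicate block the share difference between STZ with implants and control was 13.5 points (exact permutation p = 0.0625, the smallest its arrangements allow), and among Ins2-positive cells 13.1; among shallow cells the latter was 16.6. Leaving out 1 library gave 13.1 to 16.9 points for all hormone-positive cells, 13.4 to 17.9 for Ins2, −20.0 to 0.546 for Sst and 3.38 to 8.12 for postnatal libraries. The Ppy difference turned to 2.25 when the second hormone had to exceed 0.5 of the largest.

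The program sums with the marker lists were 1.43 for Ins2 and Gcg, 0.928 for Ins2 and Ppy, 1.47 for Gcg and Ppy and 1.13 for Sst and Ppy. For Ins2 and Gcg the sum was 1.72 against single-hormone cells with a second hormone under 500, and 1.09 to 1.48 with 1 library left out. Lists without Ins1 and Pyy, lists without haemoglobin genes and a reference of all libraries, chosen after seeing the data, gave sums within the spread between libraries for the 4 pairs.

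Without a filter on low counts, which tests more genes, 55 genes were called in Ins2-positive cells, 42 for Ins2 and Ppy, 21 for Gcg and Ppy and 53 for Sst and Ppy, and the median of all genes shifted to −0.41 for both pairs of Ppy with Ins2 and with Gcg. DESeq2 called 23 for Ins2 and Ppy and 11 for Gcg and Ppy. With no replicate block edgeR called 6, 0 (245 at an unadjusted p under 0.05) and 11 for Ins2, Gcg and Sst with Ppy. Without thinning of the parents it called 47 for Ins2 and 89 for Sst with Ppy. With at least 5 cells it called 0 for Gcg and Ppy (219 unadjusted) and 7 for Sst and Ppy, and against stricter single-hormone cells 0 for Gcg and Ppy (163 unadjusted). Leaving out 1 library gave 6 to 20 genes in Ins2-positive cells, 2 to 29 for Ins2, 0 to 3 for Gcg and 7 to 38 for Sst with Ppy. The cause of these moves was not tested. In Ins2-positive cells 17 genes were called with the block by batch number; of the 16 called without it Cited2 and Ero1lb were not among them, so that at least 3 others gained a call. The block changed no other call of the shares.

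Of the values of named genes, 198 of 319 with 1 library left out and 178 of 231 under other alternatives stayed called, and none changed direction. A minimum of 5 cells for Ins2 and Ppy and stricter single-hormone cells for Sst and Ppy left too few libraries. The depth of the sums, as few as 3 cells in a library, limits what these tests can show.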

Other observations

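Cells between both classes, 314 hormone-positive cells whose second hormone met 1 limit of the rule but not the other, were not compared above. In 106 of them Gcg led and Ins2 came second, in 63 Sst led before Ppy, in 42 Ppy led before Ins2, in 37 Gcg led before Ppy and in 27 Ins2 led before Ppy. Gcg with Ins2 was thus the most frequent order there, beside 23 of the 308 polyhormonal cells. In 10 libraries with pools of cells, the share of polyhormonal cells in a pool of the Control replicates 1, 2 and 3 ran from 0% to 15.4%, from 5.45% to 11.4% and stood at 0%. Pools of STZ_D6 ran from 0% to 18.2%, of STZ_D12 replicate 1 from 13.0% to 35%, of STZ_D30 from 3.85% to 25%, of STZ_D42 from 7.14% to 31.8%, of STZ_M2 from 13.3% to 22.9%, of STZ_M5 from 5.41% to 25% and of STZ_M9 from 24.1% to 38.9%, so that pools of several STZ libraries overlapped those of the controls.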
